A study of Mus musculus with 4 samples.

Results

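The amino acid, sugar and peptide transporters of the intestinal epithelium were followed in intestinal stem cells (ISCs) of young and old mice. The set is a fixed list of 34 gene symbols from the solute carrier (SLC) families, matched by symbol and chosen with earlier results of these data known, and all 34 were found among the 52459 genes of the count table. The 4 libraries came from wild-type female C57/Bl6 mice, 2 pools of 5 animals at 2 months (ISC_2mth) and 2 pools of 5 animals at 22 months (ISC_22mth), with no treatment at either age. Villi were scraped off the small intestine, and crypt cells were sorted by the SM6 strategy, an antibody panel that needs no reporter gene and keeps EPCAM+ epithelial cells that are CD31- and CD45-, CD24med, CD166+, CD44high, EPHB2high and GRP78low. From each pool, 25 ng of RNA was amplified with the SPIA chemistry and sequenced over the full transcript length. A pool hides the differences between its animals, and the p-values below rest only on the spread between these pools. The test estimates that spread partly from all genes tested, not from a gene's own pools alone. The gate rests on surface proteins, so cells that have begun to differentiate may be among those kept.

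The small intestine takes up the products of digestion through carriers of its brush border membrane and hands them to the blood through carriers of the basolateral membrane. Many brush border carriers are driven by sodium or proton gradients and belong to absorptive enterocytes, the mature cells of the villus. Crypt cells, which divide, use other carriers to feed their own growth, such as the exchangers built from the 4F2 heavy chain (Slc3a2) and a light chain. Several carriers work only as a pair of subunits, among them Slc7a9 with Slc3a1, the cystine and dibasic amino acid carrier that fails in cystinuria.

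The stretches before the start sites of the partner genes Slc7a9 and Slc3a1 are shown because these genes encode the subunits of 1 carrier, of which Slc7a9 rose in old ISCs and Slc3a1 overlapped between the ages (below). Both are from RefSeq on build GRCm38.p6, plus strand, 5′ to 3′. The Slc7a9 stretch is chr7:35448842-35449036, from 250 to 56 bases before the first of 2 RefSeq starts, and it lies inside the longer GENCODE gene model, whose exonic bases are not shown. The Slc3a1 stretch is chr17:85028097-85028346, the 250 bases before the start. Capitals mark matches to the core letters of the HNF4 motif (CAAAGTCC) and the CDX2 motif (TTTATNG), named after transcription factors of the intestinal epithelium.
Slc7a9: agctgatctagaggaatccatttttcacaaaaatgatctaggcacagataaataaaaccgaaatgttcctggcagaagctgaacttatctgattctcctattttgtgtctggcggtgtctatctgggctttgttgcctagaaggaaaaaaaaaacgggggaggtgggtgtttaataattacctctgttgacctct
Slc3a1: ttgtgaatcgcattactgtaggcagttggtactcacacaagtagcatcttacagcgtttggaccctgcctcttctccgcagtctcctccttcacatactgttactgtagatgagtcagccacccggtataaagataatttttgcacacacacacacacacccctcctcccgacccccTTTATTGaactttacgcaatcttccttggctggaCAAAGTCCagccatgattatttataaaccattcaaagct
Slc3a1 held the HNF4 core at 39 bases and the CDX2 core at 73 bases before its start. The Slc7a9 stretch held neither. Both strands were searched over 250 bases for each of 37 start sites of the 28 members with a RefSeq window. The other 6 members (Slc7a5, Slc1a5, Slc38a1, Slc6a6, Slc6a8 and Slc5a9) had no window and were not searched. The HNF4 core stood in 1 of the 37 member windows and in 1.20% of all 32851 windows, and the CDX2 core in 2 (Slc3a1 and Slc7a15) and in 9.81%. The core of the amino acid response element (TGATGNAA), the sequence ATF4 binds when amino acids are short, stood in 2 windows, both of Slc7a7, and in 3.45% of all windows. The antioxidant response element core (TGACNNNGC) stood in 4 member windows (Slc16a1, Slc38a2, Slc7a1 and Slc7a6) and in 10.2% of all. These are matches of letters and do not show that a factor binds.

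The libraries held 11662654 to 15975698 counts. Mitochondrially encoded and ribosomal RNA-like loci took 62.7% and 65.8% of the counts of the young pools and 73.9% and 73.0% of those of the old pools, which left 3844276 to 4577500 counts for other genes. Levels are given as CPM, counts normalized to library size, after scaling by TMM, a composition factor of edgeR. Stem cell markers were present at both ages: Lgr5 stood at 231 ± 23.9 CPM (SD, n = 2) in young and 207 ± 1.75 CPM in old ISCs, and Ascl2 at 43.0 ± 0.776 and 53.9 ± 0.151 CPM. Of 12 leukocyte markers 3 were at 0 in every pool, and the 12 together gave 74, 52, 58 and 32 counts in ISC_2mth pools 1 and 2 and ISC_22mth pools 1 and 2. Values of a gene in the 4 pools are given in that order throughout. Of the leukocyte marker counts, Cd68 alone gave 63, 41, 30 and 22.

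Of the 34 transporters, 33 were detected and their levels per kilobase of exon spanned more than 2 orders of magnitude. Slc5a1, the sodium-glucose cotransporter of the brush border, was the most abundant per kilobase at 27.0 CPM per kb (mean of 4 pools, range 23.1 to 32.1). It was followed by the taurine carrier Slc6a6 (16.5), the glutamine carrier Slc1a5 (12.4), the glutamine and alanine carrier Slc38a2 (10.3), the lactate and short-chain fatty acid carrier Slc16a1 (9.97) and the arginine and lysine carrier Slc7a1 (7.66 CPM per kb). The ranges over the pools of Slc5a1, Slc6a6 and Slc1a5 did not touch those of their next neighbour, whereas 26 of the 33 neighbouring pairs in the whole order overlapped.

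Carriers of absorptive cells were spread over the order, with Slc5a1 at its top and the brush border subunits Slc7a9 and Slc3a1 in the middle at 1.75 and 1.35 CPM per kb. These are means over both ages. Slc7a9 stood at 0.821 CPM per kb in young and 2.68 in old pools, and Slc3a1 at 1.26 and 1.44. Others were low. The neutral amino acid carrier Slc6a19 averaged 0.308, the fructose carrier Slc2a5 0.301, the peptide carrier Slc15a1 0.232 and the basolateral glucose carrier Slc2a2 0.225 CPM per kb, and the 4-pool ranges of these genes overlapped. Slc5a11, an inositol cotransporter, had 9, 9, 7 and 6 counts and Slc7a15 had 1, 1, 5 and 3. Slc2a7 had no count in any pool, which allows a level of up to 0.198 to 0.245 CPM per pool (3 counts). These last 3 genes did not pass the filter on low counts (above 5 reads and above 1 CPM in 1 pool or more) and were not tested, and counting limits given here cover counting error only.

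**Figure D1:**
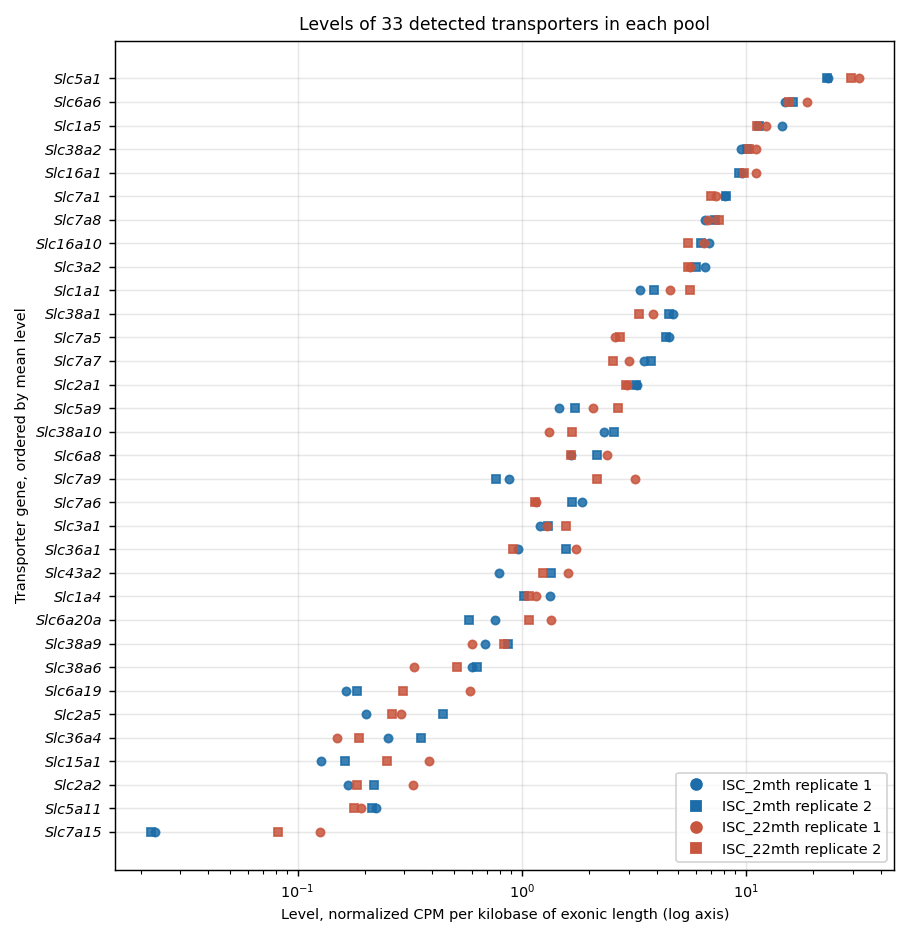
Level of the 33 detected transporters in normalized CPM per kilobase of exonic length on a log axis, 1 point per pool (blue ISC_2mth, red ISC_22mth, circles replicate 1, squares replicate 2). Slc5a1 lies highest, with a mean of 27.0 CPM per kb, and Slc7a15 lowest.

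The comparison of the ages asked which of these carriers changed in the stem cell compartment with age. Among the 31 tested transporters, 2 passed a false discovery rate (FDR) of 0.05 in edgeR's quasi-likelihood test with Benjamini-Hochberg adjustment over all tested genes, which is 6.45% of them beside 2.26% of all 13692 genes tested. Slc7a9 rose in old ISCs (1 of 31, 1.63% of all genes rose) and Slc7a5, the leucine carrier of the 4F2 group, fell (1 of 31, 0.628% of all genes fell). The log2 fold change (ISC_22mth minus ISC_2mth) was above 0 for 16 and below 0 for 15, with a median of 0.059 beside -0.0049 for all tested genes. The median size of the change was 0.36 in the set and 0.26 over all genes. In a bulk sample, fewer cells of a type and less RNA per cell cannot be told apart.

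At an unadjusted p under 0.05 stood 10 transporters (32.3%, beside 16.9% of all genes), 6 higher and 4 lower in old ISCs. The pools of the ages did not overlap for 19 (61.3%, beside 47.6% of all genes): each old pool exceeded each young one for 9 (24.0% of all genes) and below for 10 (23.6%). With 2 pools an age, an exact permutation test of a single gene cannot go below a two-sided p of 0.333. For 11 tested transporters, none of them called, the 95% interval of the fold stayed within 1.5-fold in either direction. For the other uncalled transporters the interval reached beyond it. Precision followed depth: 6 tested members with a mean count under 50 had standard errors of 0.35 to 0.69 on the log2 scale, and the deeper ones 0.12 to 0.32.

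**Figure D2:**
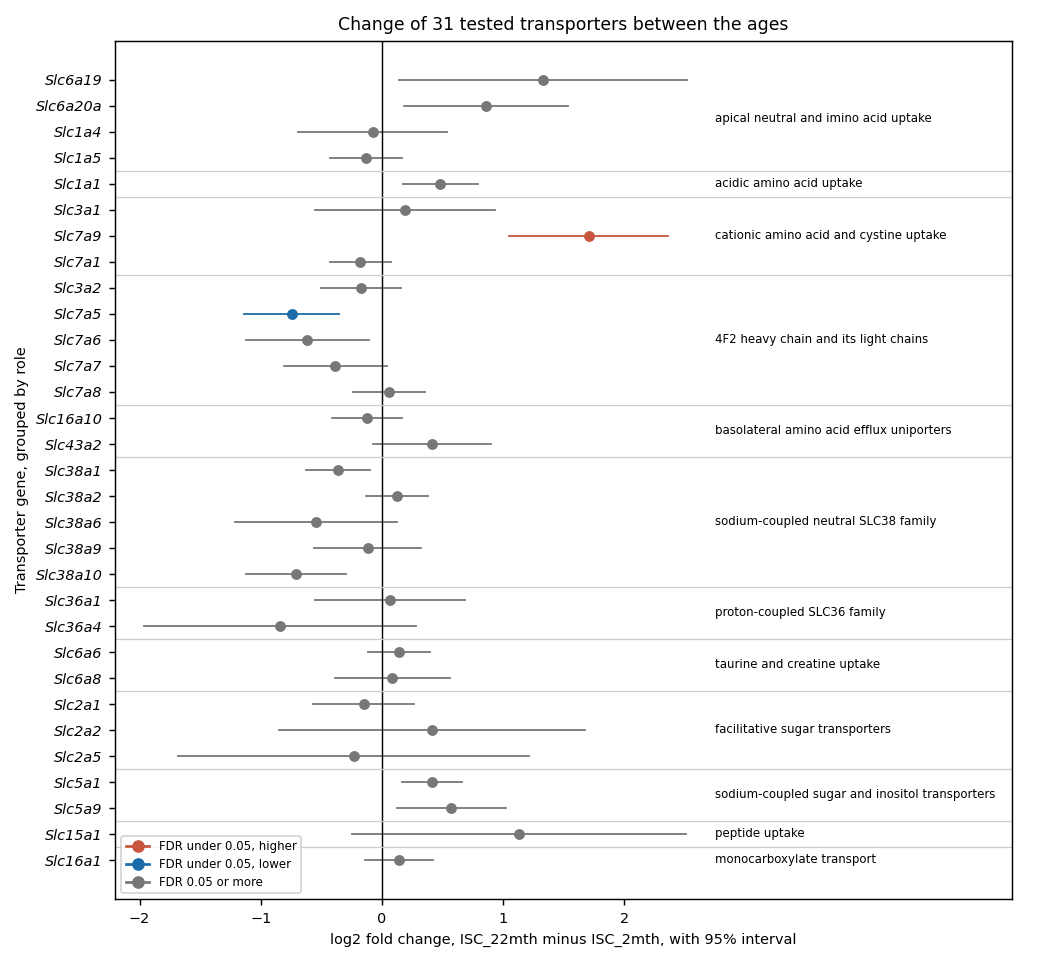
Log2 fold change of the 31 tested transporters (points) with 95% intervals from edgeR (lines), grouped by role, red for higher and blue for lower in ISC_22mth at an FDR under 0.05. Slc7a9 at 1.71 is the only red point and Slc7a5 at -0.75 the only blue one.

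Among carriers of cationic amino acids and cystine, the light chain Slc7a9 rose while values of its heavy chain overlapped between the ages. Slc7a9 (chr7:35448796-35466036, plus strand) had 34, 31, 113 and 71 counts, or 2.34, 2.05, 8.54 and 5.81 CPM. Both old pools stood well above both young pools, and the first old pool was the highest. The mean went from 2.20 ± 0.206 to 7.17 ± 1.93 CPM (SD, n = 2), a log2 fold change of 1.71 ± 0.31 (SE) and a 3.26-fold difference (95% interval 2.07 to 5.14, edgeR FDR 0.0065).

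Slc3a1, the heavy chain that carries Slc7a9 to the brush border, had 40, 45, 39 and 44 counts (2.87 ± 0.157 and 3.27 ± 0.461 CPM). The ages overlapped, with a log2 fold change of 0.19 ± 0.35 (edgeR FDR 0.84) and an interval of the fold from 0.681 to 1.91. Its exons overlap those of Prepl on the opposite strand over 601 bases, and how the counting treated strand is not given in the sources used here. Per kilobase, Slc7a9 stood at 0.721 and 0.585 of Slc3a1 in the young pools and at 2.46 and 1.37 in the old pools. By full exonic length, the order of the subunits was thus opposite at the ages. This ratio does not depend on how the libraries were scaled. It does depend on the length of Slc3a1, which includes the bases shared with Prepl. How reads there were counted is not known, so the order of the subunits within an age is uncertain.

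Slc7a1, which brings arginine and lysine into dividing cells, had 1347, 1431, 1125 and 988 counts (93.7 ± 1.33 and 82.9 ± 2.97 CPM). Both old pools lay below both young pools, but the change did not pass the test (log2 fold change -0.18 ± 0.12, edgeR FDR 0.48, fold 0.744 to 1.05).

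None of the 4 sodium-coupled neutral and imino acid carriers passed the test. Slc6a19, the main sodium-coupled carrier of neutral amino acids of the brush border, had 12, 14, 39 and 18 counts. Both old pools were above both young pools, with the second old pool the nearer to them. Its log2 fold change was 1.33 ± 0.57 (edgeR FDR 0.24) with a fold of 1.10 to 5.73. The proline carrier Slc6a20a had 45, 36, 73 and 54 counts, again without overlap, and a log2 fold change of 0.86 ± 0.32 (edgeR FDR 0.18). Of its 50-base stretches 26.7% also occur in Slc6a20b or Gm17120, so its reads cannot be assigned with certainty.

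Slc1a5, the glutamine carrier of proliferating cells, had 877, 721, 682 and 575 counts, and its ages overlapped (log2 fold change -0.13 ± 0.14, edgeR FDR 0.68, fold 0.744 to 1.12). Slc1a4, a related alanine and serine carrier, overlapped as well at -0.08 ± 0.29.

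Slc1a1, the glutamate and aspartate carrier, had 406, 488, 501 and 567 counts (30.1 ± 3.05 and 42.1 ± 6.02 CPM). All old values exceeded the young ones, and the log2 fold change of 0.48 ± 0.15 did not pass the threshold (edgeR FDR 0.10, fold 1.13 to 1.73). An antisense gene, 4430402I18Rik, overlaps its exons over 2631 bases, so reads of the pair may not be separable.

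**Figure D3:**
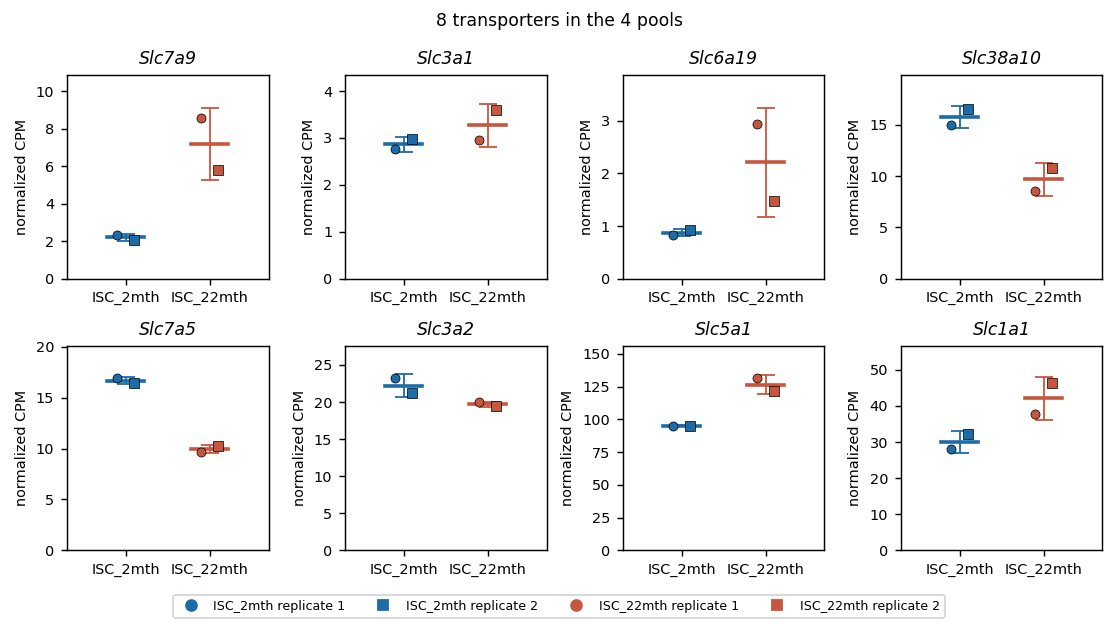
Normalized CPM of 8 transporters in each pool (circles replicate 1, squares replicate 2), with the mean of each age as a bar and the SD as a whisker (n = 2). Slc7a9 and Slc5a1 lie higher in both ISC_22mth pools and Slc7a5 and Slc38a10 lie lower, while Slc3a1 overlaps.

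The 4F2 group held the transporter that fell, Slc7a5 (chr8:121881150-121907694, minus strand), the exchanger that imports leucine and other large neutral amino acids. It had 246, 248, 128 and 125 counts, or 16.9, 16.4, 9.67 and 10.2 CPM. The pools of each age lay close together and the old ones far below the young. The mean went from 16.7 ± 0.381 to 9.95 ± 0.390 CPM (SD, n = 2), a fold of 0.596 (95% interval 0.455 to 0.782, log2 fold change -0.75 ± 0.19, edgeR FDR 0.0405). This call did not hold under every way of processing the counts (below).

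The heavy chain Slc3a2 had 338, 320, 264 and 238 counts and a log2 fold change of -0.17 ± 0.16 (edgeR FDR 0.62, fold 0.704 to 1.12). Old pools were below young ones without passing the test. Slc7a6, an exchanger of cationic for neutral amino acids, had 123, 116, 70 and 64 counts (log2 fold change -0.62 ± 0.24, edgeR FDR 0.20). Its basolateral relative Slc7a7, the gene of lysinuric protein intolerance, had 169, 189, 132 and 104 (-0.38 ± 0.20, edgeR FDR 0.36), and its exons overlap Oxa1l on the opposite strand over 232 bases. Both had old pools below young pools and neither was called.

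Slc7a8, the basolateral exchanger of neutral amino acids, had 477, 550, 450 and 467 counts and overlapped between the ages (log2 fold change 0.06 ± 0.14, edgeR FDR 0.88, fold 0.849 to 1.28). Of the light chain signal per kilobase, Slc7a8 made up 39.8%, 42.4%, 50.1% and 54.1% and Slc7a5 27.7%, 25.8%, 19.2% and 19.6%. The first share was larger and the second smaller in both old pools. Relative to Slc3a2, Slc7a5 stood at 0.715 ± 0.0318 in young and 0.481 ± 0.0272 in old pools per kilobase (SD, n = 2). Of the 5 genes in the group, 4 had a log2 fold change below 0 (median -0.38, beside -0.0049 for all tested genes) and 1 was called lower, beside 0.628% of all genes.

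Of the 5 sodium-coupled SLC38 carriers none was called. Their log2 fold change was below 0 for 4, of which Slc38a9 overlapped between the ages, and the median was -0.36 beside -0.0049 for all tested genes. Slc38a10 came nearest, with 218, 250, 113 and 132 counts (15.8 ± 1.08 and 9.67 ± 1.60 CPM). The old pools lay clearly below, at a log2 fold change of -0.71 ± 0.20 and an edgeR FDR of 0.069 (fold 0.459 to 0.815), close to the value of Slc7a5. Gm11769 overlaps its exons on the opposite strand over 367 bases. The glutamine carrier Slc38a1 had 1183, 1179, 876 and 707 counts, with no overlap and a log2 fold change of -0.36 ± 0.13 (edgeR FDR 0.15).

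Slc38a2, which amino acid shortage is known to induce, had 1218, 1357, 1299 and 1114 counts. Its old pools were narrowly above the young ones (log2 fold change 0.12 ± 0.12, edgeR FDR 0.65, fold 0.914 to 1.30). Per kilobase the ratio of Slc38a2 to Slc38a1 was 2.01, 2.24, 2.89 and 3.07. Slc38a9, the arginine sensor of the lysosome, overlapped (-0.12 ± 0.21), and Slc38a6, with 35.5% of its stretches shared with other genes, stood at -0.55 ± 0.32.

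Of the proton-coupled SLC36 carriers, Slc36a1 stood at 1.30 CPM per kb (mean of 4 pools), next to Slc3a1 in the order, and Slc36a4 was low at 0.236. Slc36a1, found on the brush border and on lysosomes, had 79, 134, 130 and 63 counts, and each age spanned most of the range of the other (log2 fold change 0.07 ± 0.30). Slc36a4 had 24, 35, 13 and 15 counts (-0.84 ± 0.54, edgeR FDR 0.45). Neither was called.

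The uniporters that let aromatic and branched amino acids leave across the basolateral membrane did not pass the test. Slc16a10, the carrier of aromatic amino acids, had 729, 701, 637 and 496 counts (log2 fold change -0.12 ± 0.14, edgeR FDR 0.70, fold 0.753 to 1.12). Slc43a2 had 116, 205, 214 and 153 (0.41 ± 0.23, edgeR FDR 0.39, fold 0.949 to 1.86). Ages overlapped for both, and for Slc43a2 the young pools alone spanned most of the range.

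Taurine and creatine carriers likewise overlapped between the ages. Slc6a6, the taurine carrier, had 1847, 2084, 2111 and 1621 counts (133 ± 7.52 and 146 ± 19.0 CPM, log2 fold change 0.14 ± 0.12, fold 0.921 to 1.32). The creatine carrier Slc6a8 had 125, 171, 165 and 106 (0.09 ± 0.23). For these genes the second old pool was the lower of the old ones.

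Of the 3 sodium-coupled sugar and inositol carriers, both tested ones had higher values in old ISCs without passing the threshold in edgeR, and the untested Slc5a11 had lower counts. Slc5a1, which takes up glucose and galactose, had 1383, 1434, 1741 and 1487 counts, or 95.3, 94.9, 132 and 122 CPM. The young pools were nearly equal and both old pools were higher, by a log2 fold change of 0.41 ± 0.12 (edgeR FDR 0.075, fold 1.12 to 1.58). Its share of the signal of all members per kilobase was 17.2%, 17.0%, 21.5% and 21.5%. Slc5a9, a mannose and fructose cotransporter, had 111, 135, 143 and 170 counts, also without overlap (0.57 ± 0.21, edgeR FDR 0.18, fold 1.09 to 2.03).

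The facilitative sugar carriers gave no call. Slc2a1, the glucose carrier of most dividing cells, had 167, 171, 137 and 125 counts (11.4 ± 0.135 and 10.3 ± 0.0913 CPM). Its old pools were slightly below the young ones (log2 fold change -0.15 ± 0.20, edgeR FDR 0.76, fold 0.676 to 1.20). Slc5a1 exceeded Slc2a1 per kilobase by 7.07, 7.16, 10.9 and 10.2 times in the 4 pools. The villus carriers Slc2a2, with 14, 19, 25 and 13 counts, and Slc2a5, with 10, 23, 13 and 11, overlapped, and their intervals (0.554 to 3.19 and 0.311 to 2.33) were wide.

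Slc15a1, which takes up dipeptides and tripeptides with protons, had 9, 12, 25 and 15 counts. Both old pools were above both young pools, at a log2 fold change of 1.13 ± 0.66 (edgeR FDR 0.41, fold 0.841 to 5.71). Slc16a1 had 620, 623, 650 and 532 counts (42.0 ± 1.06 and 46.3 ± 3.96 CPM), with the old pools just above the young (0.14 ± 0.13, edgeR FDR 0.63, fold 0.909 to 1.34). Summed over all members, the signal was 846, 866, 918 and 847 CPM, and the ages overlapped.

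A second list held 45 further amino acid, sugar and peptide carriers, of which 20 were tested and 11 were at 0 in every pool. Their log2 fold changes were above 0 for 6 and below 0 for 14 (median -0.20), and 1 of the 20 passed the test, beside 2.26% of all genes. This was Slc1a3, a glutamate carrier best known from glia, with 374, 272, 524 and 684 counts. Both old pools exceeded the young ones (21.9 ± 5.49 and 47.8 ± 11.6 CPM, log2 fold change 1.13 ± 0.18, edgeR FDR 0.0025). Slc5a2, a sodium-glucose carrier named after its values were seen because it belongs with Slc5a1, had 29, 5, 3 and 4 counts and was not called (-2.04 ± 0.99). Its first young pool stood far above the other 3.

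Some markers of absorptive cells also rose in old ISCs, 6 of 17 tested, beside 1.63% of all genes. The 18 enterocyte markers summed to 1363, 1547, 2202 and 2116 CPM, without overlap of the ages. None was at 0 in every pool. Of those tested, 16 had a log2 fold change above 0 (median 0.49), 11 did not pass the test and 6 of these 11 overlapped between the ages. The 6 that rose were the fatty acid binding proteins Fabp1 (2.35 ± 0.22) and Fabp2 (0.93 ± 0.16), the lipoprotein Apob (0.53 ± 0.11), the disaccharidases Sis (1.38 ± 0.16) and Mgam (0.41 ± 0.11), and the retinol binder Rbp2 (0.98 ± 0.21). Alkaline phosphatase Alpi, the first marker of the list, had 99, 176, 259 and 165 counts and was not called (0.84 ± 0.24, edgeR FDR 0.077). The part of these cells in the transporter values was not tested.

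Paneth and tuft markers were uneven across the pools. Paneth markers summed to 955, 731, 2084 and 814 CPM, so the first old pool stood apart. This pool was also the highest for Slc7a9, Slc6a19 and Slc5a1. Of the called enterocyte markers, Fabp1, Fabp2, Apob, Sis and Rbp2 were highest in it too, and Mgam was not. Fabp1 stood at 117 CPM in it and 59.7 CPM in the other old pool, Sis at 103 and 71.0 CPM, and Mgam at 619 and 656 CPM. Of 9 Paneth markers tested, 2 were called higher (1.63% of all genes were), Defa24 (0.87 ± 0.22) and Defa17 (1.11 ± 0.23). Of the 9, 7 had a log2 fold change above 0 and 2 below (median 0.65), and the 7 uncalled ones overlapped between the ages. Without that pool Slc7a9 remained called, at a log2 fold change of 1.40 (edgeR FDR 0.021), and Slc6a19 and Slc5a1 stayed uncalled. The log2 fold change of Slc6a19 was then 0.74 in place of 1.33 (edgeR FDR 0.73), and that of Slc5a1 was 0.35 in place of 0.41 (edgeR FDR 0.10). Of 3 tested tuft markers, Dclk1 was called, beside the same 1.63% of all genes, on 4, 4, 42 and 19 counts (3.09 ± 0.71), while Trpm5 (0.94 ± 0.68) and Pou2f3 (a log2 fold change of -0.21) overlapped between the ages and were not called. The 12 stem cell markers gave no call. Their log2 fold change was above 0 for 4 and below 0 for 8 (median -0.19), and Axin2 came nearest (-0.46 ± 0.12, edgeR FDR 0.051). They summed to 3649, 3433, 3380 and 3568 CPM, with overlap. Much of this sum is Olfm4 (mean 1264 CPM in young and 1199 CPM in old pools) and Slc12a2 (854 and 1016 CPM), so it can hide changes of other markers. The study's own list of changed genes holds Axin2 and Cdk6 as lower and Slc12a2 as higher in old ISCs. The part of these cell types in the transporter values was not tested.

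**Figure D4:**
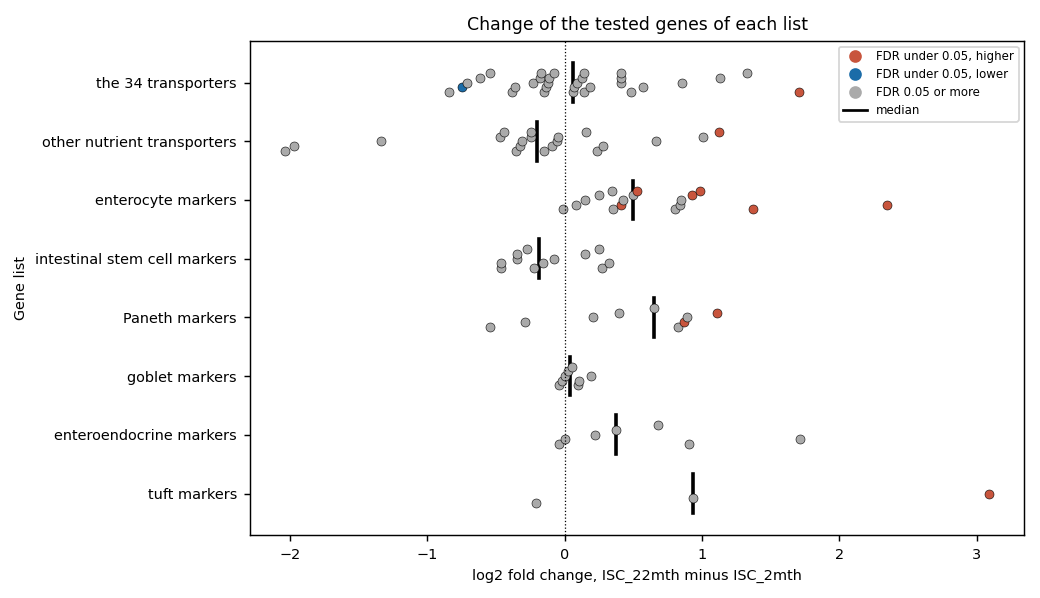
Log2 fold change of each tested gene (points) by list, with the median as a bar, red for higher and blue for lower in ISC_22mth at an FDR under 0.05. The enterocyte markers have a median of 0.49 and the 34 transporters of 0.059.

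The calls differed in how far they held when the counts were processed otherwise. Slc7a9 was called in all 14 alternatives, including those that left out a pool, with a log2 fold change of 1.21 to 1.96. Slc7a5 kept its direction in all 14 and was called in 9. Its call was lost with DESeq2 (FDR 0.12), with offsets for GC content and length (FDR 0.10), and without ISC_2mth replicate 1, ISC_2mth replicate 2 or ISC_22mth replicate 1 (FDR 0.22, 0.094 and 0.052). Its log2 fold change in these fits was -0.75, -0.63, -0.72, -0.78 and -0.71, beside -0.75 as reported. Slc38a10 was called in 5 alternatives, Slc5a1 in 3, and Slc1a1 and Slc38a1 in 2 each. Any other transporter that gained a call did so under total counts alone. For Slc5a1 the 3 included limma voom with sample quality weights, the test used in the study (log2 fold change 0.41, FDR 0.038 here). The study's own list of changed genes holds Slc5a1, Slc7a9 and Slc1a3 as higher and Slc7a5 as lower in old ISCs. Of all genes tested, voom called 2.34%, the likelihood ratio test 4.46%, DESeq2 1.44%, its size factors 2.26%, and TMM without mitochondrial and rRNA-like loci 2.28%. The share was 33.8% with total counts, 2.24% with no filter, 2.02% with filterByExpr, 4.56% with the replicate number as a block, and 1.33% with the offsets. Without ISC_2mth replicate 1 or 2 it was 1.07% or 2.04%, and without ISC_22mth replicate 1 or 2 it was 4.63% or 5.02%. Scaling by total counts moved the median of all tested genes to -0.49, and changes under it are read relative to that median.

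**Figure D5:**
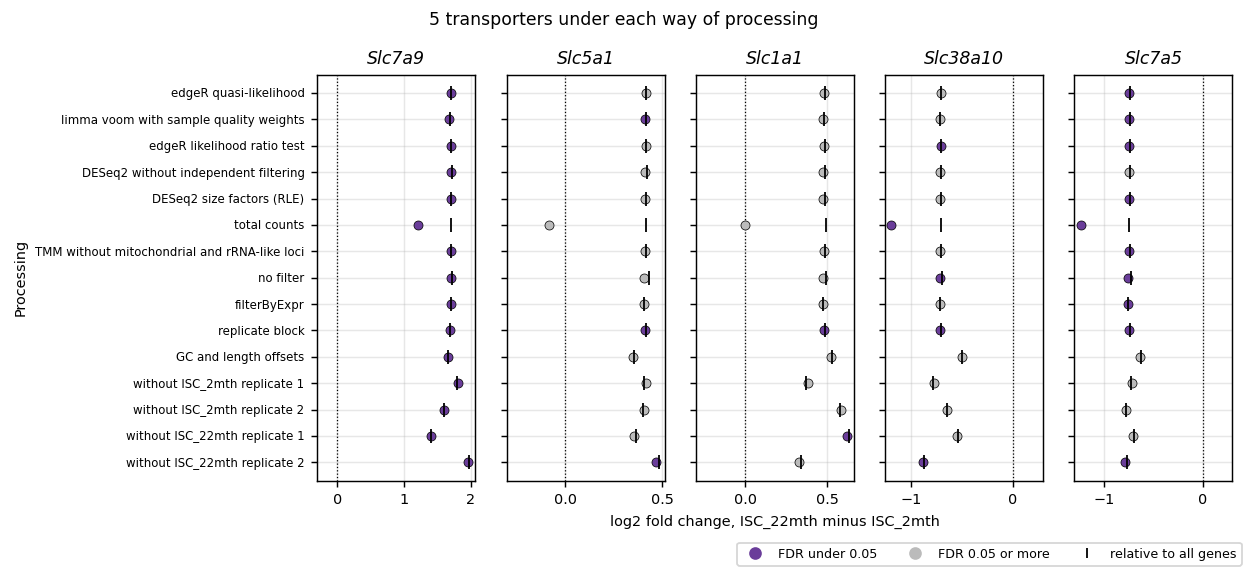
Log2 fold change of 5 transporters under each way of processing (points, purple where the FDR was under 0.05), with black ticks for the value relative to the median of all genes. Slc7a9 is purple in every line, and under total counts the points shift to lower values while the ticks stay in place.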

How the data were processed

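RNA of ISCs sorted from pools of 5 mice was sequenced in 4 libraries, 2 at 2 months and 2 at 22 months. The authors trimmed reads with Trimmomatic 0.30, aligned them with STAR 2.4.2a to GRCm38 and counted exonic reads of GENCODE vM15 genes with featureCounts (submitters' processing notes and the study's methods), and deposited raw counts per gene. Strand and multi-mapping settings are not given in the sources used here, and reads carried no molecular identifiers.

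Groups and replicates followed the labels. Replicates of an age differed by more than sampling noise (chi-square per gene 9.42 and 7.11). The filter kept 13692 of 52459 genes, those above 5 reads and above 1 CPM in 1 pool or more. Ages were compared with edgeR 4.0.16 (R 4.3.3) on the deposited counts, using TMM, glmQLFit, glmQLFTest and Benjamini-Hochberg adjustment over all genes kept, without covariates, at FDR 0.05. The standard error came from the log2 fold change and F. The study used limma voom with sample quality weights, tried here (limma 3.58.1) among 10 alternatives with edgeR's likelihood ratio test, DESeq2 1.42.0, its size factors, total counts, TMM without mitochondrial and rRNA-like loci, no filter, filterByExpr, a replicate block, and GC and length offsets. Fits without each of the pools were also made, with the lone pool assumed to vary like the others. Fits were tested on simulated data.

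The members and lists were chosen with earlier results of these data known. Counts are given for called members and for anchors of each role. Those of Slc38a10, Slc7a6, Slc5a9, Slc36a4, Slc5a11 and Slc7a15, which are not anchors, were added with their values known. From the lists, called genes and the first markers are named. Slc5a2, Pou2f3, Olfm4, Axin2, Cdk6, Slc12a2 and Cd68 were added with their values known. A list of transporter partners and ion pumps is not reported here. Positions, lengths and overlaps came from GENCODE vM21 (GRCm38), matched by symbol, and promoters from RefSeq.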

Additional observations from a re-analysis of the deposited data

How the results depend on the processing

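The number of transporters called (2) was 1 with DESeq2 or GC and length offsets, 15 with total counts, 5 with the replicate block, and 1 to 4 without a pool. Those higher in old ISCs (1) were 2 with voom, 3 with the block and 1 to 2 without a pool. Those lower (1) were 2 with the likelihood ratio test, no filter or the block, 0 with DESeq2 or the offsets, 14 with total counts and 0 to 2 without a pool. Of the further carriers (1), the likelihood ratio test, no filter and the block called 2, total counts 8, and fits without a pool 1 to 3. Enterocyte markers called higher (6) were 3 with total counts, 10 with no filter or the block, and 3 to 9 without a pool. The median of the transporters (0.059) was -0.43 with total counts, which moved all genes by -0.49, and -0.12 to 0.13 without a pool. Under total counts 11 transporters turned in sign: Slc1a1 (-0.0025), Slc3a1 (-0.30), Slc7a8 (-0.43), Slc43a2 (-0.068), Slc38a2 (-0.37), Slc36a1 (-0.41), Slc6a6 (-0.35), Slc6a8 (-0.40), Slc2a2 (-0.075), Slc5a1 (-0.080) and Slc16a1 (-0.35), as did the marker Mgam (-0.077). Leaving out a pool turned the sign of 9 in at least 1 fit: Slc1a4 (-0.26 to 0.12), Slc1a5 (-0.30 to 0.049), Slc7a8 (-0.027 to 0.14), Slc38a9 (-0.37 to 0.10), Slc36a1 (-0.48 to 0.46), Slc6a6 (-0.00010 to 0.27), Slc6a8 (-0.20 to 0.32), Slc2a2 (-0.064 to 0.76) and Slc2a5 (-0.69 to 0.44), none of them called in the reported fit. Apart from the shift of all genes under total counts, the cause of these changes was not tested. Same-numbered pools are different animals and their deviations did not correlate (-0.00015), so the replicate block pairs nothing, and the 5 calls under it are no stronger evidence. Depth limits the low carriers, whose standard errors reached 0.69.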

Other observations

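Other secretory and regional markers were measured in the same pools. Goblet markers summed to 1945, 2562, 2655 and 2068 CPM in ISC_2mth pools 1 and 2 and ISC_22mth pools 1 and 2, and none of the 8 was called by edgeR's quasi-likelihood test (median log2 fold change 0.04). Muc2, the main mucin, stood at 0.11 ± 0.14 and the secreted Clca1 at -0.04 ± 0.13 (log2 fold change ± SE). Enteroendocrine markers summed to 41.2, 154, 136 and 96.1 CPM, with the first young pool far below the second, and none of 7 tested was called (median 0.37). Chga and Chgb, granins of hormone granules, stood at 0.37 ± 0.40 and 0.22 ± 0.39.

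Markers of the upper small intestine, among them the transcription factor Gata4 (0.19 ± 0.14) and Onecut2 (0.06 ± 0.12), summed to 185, 174, 192 and 194 CPM, and none of 6 was called (median 0.13). Markers of the lower small intestine summed to 54.2, 62.1, 81.1 and 68.6 CPM, with both old pools above both young pools and a positive log2 fold change for all 5 tested (median 0.53), none called. The ileal bile acid binder Fabp6 had 85, 184, 252 and 137 counts (0.75 ± 0.28, edgeR FDR 0.18).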
